A study of Mus musculus with 6 samples.

Results

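The 7 genes described here are the angiopoietins Angpt1 and Angpt2, their receptor Tek with its relative Tie1, apelin (Apln) with its receptor Aplnr, and Esm1, a marker of endothelial tip cells. They were taken by symbol, and all 7 are among the 32286 features of the files. Their raw counts of unique molecular identifiers (UMIs) were compared by cell class between injured quadriceps of clodronate-treated and control mice. All 6 mice were Cdh5-CreERT2:R26R-tdTomato, which carry a tamoxifen-dependent recombinase under the endothelial Cdh5 promoter and a red reporter. The 3 CLL mice were given clodronate liposomes intravenously, which partly ablate circulating monocytes, and the 3 SHAM mice were given PBS liposomes. Liposomes were injected 1 day before and 2 days after cardiotoxin (CTX), a toxin that kills myofibres and is followed by regeneration. Muscle was taken on day 5 and each library is from its own mouse. Neither age and sex nor the timing of tamoxifen is stated in the sources used here.

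Angiopoietin 1 is made mainly by cells around vessels and activates Tek (also called Tie2) on endothelium, which keeps vessels quiet and tight. Angiopoietin 2 is stored and released by endothelium itself and usually opposes that signal when vessels are being remodelled. Tie1 has no high-affinity ligand of its own among the angiopoietins and modulates Tek. Apelin is secreted by sprouting endothelial cells and acts on the G protein-coupled receptor Aplnr, carried mostly by venous and capillary endothelium. Esm1 (endocan) is a secreted proteoglycan induced by VEGF at the sprouting front.

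Libraries held 58625420 to 75130565 UMIs in CLL and 23873416 to 94841003 in SHAM. After filtering, 46685 of 60282 barcodes were kept, and 362 barcode sequences occurred in more than 1 library. CLL replicate 2 and SHAM replicate 3 stood apart: 45.8% and 81.0% of their kept cells lay in clusters that could not be named, against 15.1% and 17.2% in the other CLL libraries and 12.4% and 16.9% in the other SHAM libraries. Endothelial-like cells, named from Cdh5, Pecam1, Kdr and related markers with none of the 7 genes used, came to 39, 205 and 58 cells in the CLL libraries, against 2224, 270 and 170 cells in the SHAM libraries. The 14 endothelial markers summed to 5558 to 7419 CPM (UMIs per 1000000 UMIs of the class) in these cells in CLL and 7655 to 8333 CPM in SHAM, and none was at 0. Part of the class carried RNA of other cells: sub-clusters led by stromal, myeloid or muscle genes held 30.8% to 52.7% of endothelial-like cells in CLL and 15.3% to 40.1% in SHAM.

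Positions are from GENCODE annotation of GRCm38, the build of the files (mm10). All 7 genes are protein-coding. Angpt1 lies on chromosome 15 (42424723 to 42676977, minus strand), Angpt2 on chromosome 8 (18690263 to 18741562, minus strand), Tek on chromosome 4 (94739289 to 94874976, plus strand) and Tie1 on chromosome 4 (118471191 to 118490061, minus strand). Apln lies on chromosome X (48025146 to 48034853, minus strand), Aplnr on chromosome 2 (85136225 to 85139923, plus strand) and Esm1 on chromosome 13 (113209659 to 113218098, plus strand). RefSeq promoters (GRCm38.p6) matched 4 of the 7 genes: Tek, Tie1, Apln and Esm1. The 250 bases before the start are shown for Esm1 and Apln, the genes that were higher in CLL in a tested class: chr13:113209409-113209658, plus strand, and chrX:48034854-48035103, minus strand. Capitals mark GGAA or its reverse complement TTCC, the core bound by ETS factors, which are central to endothelial gene expression.
Esm1: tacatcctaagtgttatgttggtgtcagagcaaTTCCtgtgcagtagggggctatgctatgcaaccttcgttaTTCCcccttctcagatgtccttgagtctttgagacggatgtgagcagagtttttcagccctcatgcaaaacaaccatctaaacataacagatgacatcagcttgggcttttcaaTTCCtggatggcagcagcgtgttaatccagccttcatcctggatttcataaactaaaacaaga
Apln: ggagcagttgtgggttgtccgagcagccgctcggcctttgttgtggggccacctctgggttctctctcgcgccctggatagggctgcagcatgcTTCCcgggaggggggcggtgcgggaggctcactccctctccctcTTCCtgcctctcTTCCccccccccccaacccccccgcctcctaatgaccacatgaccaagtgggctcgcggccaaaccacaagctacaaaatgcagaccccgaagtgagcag
Each window held 3 such cores, and 93.4% of 32851 promoter windows of the same length held at least 1, with a median of 3. The hypoxia response core ACGTG (reverse complement CACGT), searched on both strands, was found in neither window and in 16.6% of all windows. These matches are letters in a window and were not set against any binding data.

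In summed counts each gene had its own set of source cells. Tie1 and Aplnr were endothelial in both groups: endothelial-like cells held 80.9 ± 5.27% of Tie1 UMIs in CLL and 78.0 ± 10.9% in SHAM, and 68.4 ± 5.14% of Aplnr UMIs in CLL and 80.3 ± 8.47% in SHAM (SD, n = 3 each). Angpt1 was stromal in both, with 76.4 ± 12.9% of its UMIs in fibroblast/tenocyte-like cells in CLL and 60.3 ± 12.8% in SHAM. For Tek and Apln the main source differed between groups. Endothelial-like cells held 8.79 ± 5.58% of Tek UMIs in CLL and 58.4 ± 9.68% in SHAM, whereas fibroblast/tenocyte-like cells held 75.2 ± 11.3% in CLL and 16.0 ± 5.16% in SHAM. Of Apln UMIs, endothelial-like cells held 15.4 ± 2.34% in CLL and 77.5 ± 12.4% in SHAM, and fibroblast/tenocyte-like cells 72.5 ± 5.60% in CLL and 4.62 ± 2.51% in SHAM. These shares follow the numbers of cells as well as the level per cell: endothelial-like cells made up 1.38 ± 0.553% of all CLL cells kept, against 9.62 ± 6.14% in SHAM, and fibroblast/tenocyte-like cells 37.8 ± 9.63% in CLL, against 13.7 ± 8.40% in SHAM. No test was made of shares by class, since classes come from clustering of the same cells.

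**Figure D1:**
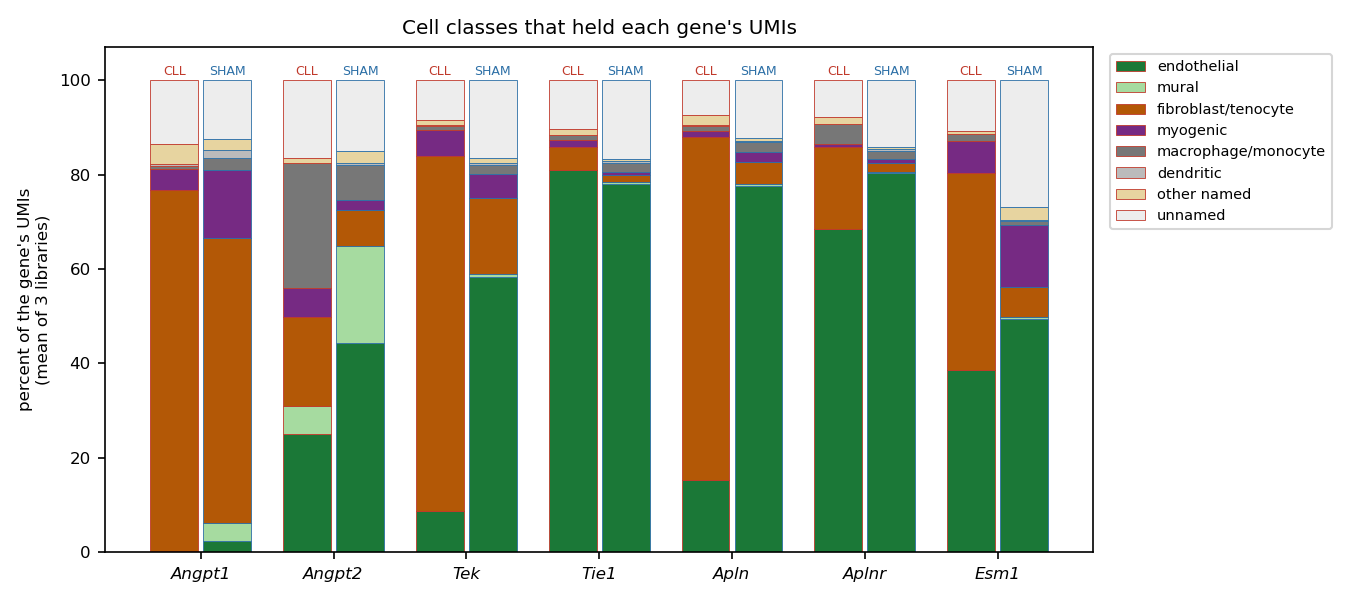
Percent of each gene's UMIs found in each cell class (mean of 3 libraries), with the CLL bar left of the SHAM bar. Tie1 and Aplnr are mostly endothelial (dark green) in both bars, while for Tek and Apln the fibroblast/tenocyte part (brown) is 75.2% and 72.5% in CLL and 16.0% and 4.62% in SHAM.

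**Figure D2:**
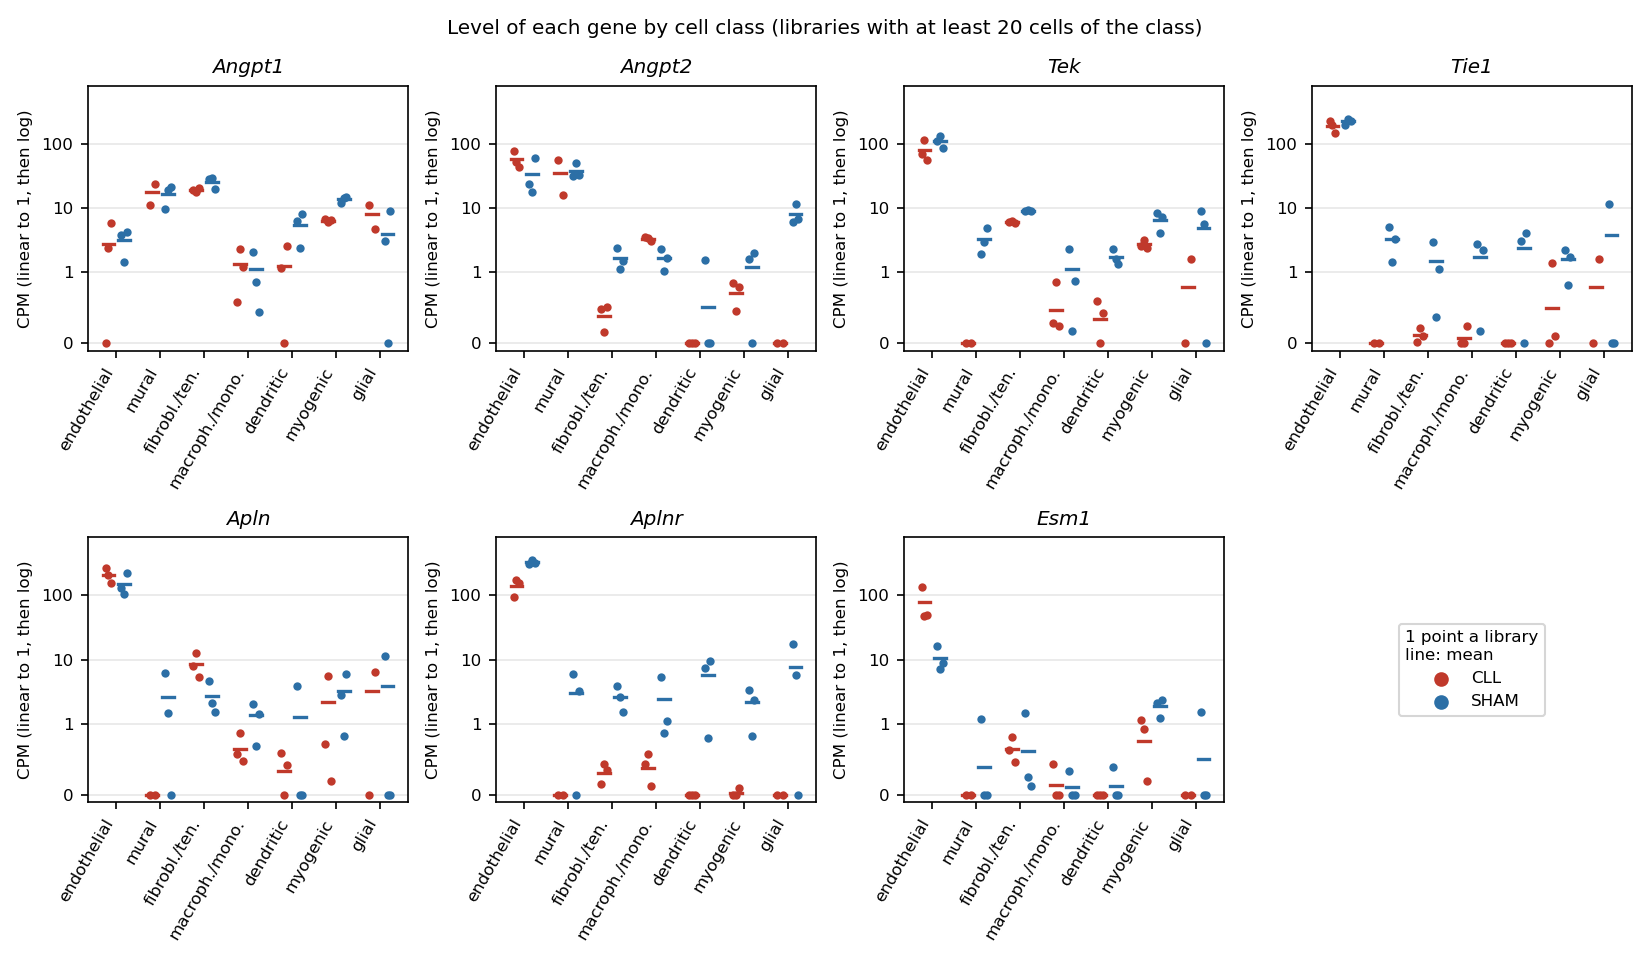
CPM of each gene (vertical axis, linear to 1 and logarithmic above) in 7 cell classes, 1 point for each library with at least 20 cells of the class, CLL left of SHAM, lines at the means. Tie1, Aplnr, Apln, Tek and Esm1 have their highest points in endothelial-like cells, Angpt1 has its highest mean in fibroblast/tenocyte-like cells, and Angpt2 is shared by endothelial-like and mural-like cells.

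Within endothelial-like cells, Esm1 was higher and the other members did not pass the threshold in CLL. The test on summed counts was edgeR's quasi-likelihood one, adjusted over all 8953 genes tested, at an adjusted p of 0.05. Of the 7 genes, 6 passed the filter on low counts and 1 was called, where 8 genes (0.0894%) were called in all, 0.0335% higher and 0.0558% lower in CLL. An unadjusted p below the same limit was found for 710 genes. In simulated sums like these the test recovered 16% of genes set to a log2 fold of size 1, and 72% at size 2. A gene that did not pass here may therefore still differ.

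Esm1 had 136.9, 47.7 and 50.02 CPM in endothelial-like cells of CLL replicates 1 to 3, against 16.1, 7.14 and 8.86 CPM in SHAM replicates 1 to 3. All CLL libraries were above all SHAM libraries, and CLL replicate 1, with 39 endothelial-like cells, was highest. The log2 fold was 2.82 ± 0.43 (SE; edgeR adjusted p = 0.0252). These values rest on 28, 20 and 17 Esm1 UMIs in CLL and 111, 15 and 19 in SHAM. The CLL UMIs came from 19 cells, and 1 cell of CLL replicate 1 held 9 of the 28 there. In SHAM 96 cells had an Esm1 UMI. The fold stayed above 2 in every alternative that was run (2.02 to 3.24). The call was lost without CLL replicate 1 (edgeR adjusted p = 0.0905), CLL replicate 3 (0.161) or SHAM replicate 3 (0.125), without CLL replicate 2 and SHAM replicate 3 together (0.116), without cells holding mural markers (0.201), and with doublets kept (0.0664). With the replicate number as a block, a pairing that the labels do not give, it held, at an edgeR adjusted p of 0.000895. Without the sub-clusters led by genes of other cells the log2 fold was 2.61 ± 0.37 (edgeR adjusted p = 0.0102).

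Aplnr, the apelin receptor, went the other way, without passing. Its level was 92.9, 173.9 and 155.9 CPM in CLL and 310.04, 358.04 and 317.996 CPM in SHAM. Every CLL library was below every SHAM library, and the SHAM libraries lay close together. The log2 fold was -1.05 ± 0.25, with an edgeR adjusted p of 0.185. With the replicate number as a block, again not a pairing given by the labels, the edgeR adjusted p was 0.0315. The log2 fold was -1.09 ± 0.21 in that fit, and 60 genes were called in place of 8. DESeq2 gave an adjusted p of 0.0226 and edgeR with no filter on low counts 0.00511, while leaving out any 1 library gave edgeR adjusted p-values of 0.0935 to 0.553. In the largest endothelial-like cluster alone, which leaves out the cycling and venous clusters, the log2 fold was -1.34 ± 0.26 (edgeR adjusted p = 0.115).

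Apln itself had 268.99, 209.7 and 155.9 CPM in endothelial-like cells in CLL and 129.9, 104.3 and 220.5 CPM in SHAM. SHAM replicate 3 lay above CLL replicates 2 and 3, so the groups overlapped. Of the 55 Apln UMIs of CLL replicate 1, 18 came from 1 cell, the same that held 9 of its Esm1 UMIs. The log2 fold was 0.61 ± 0.31 (edgeR adjusted p = 0.681). With the replicate number as a block its edgeR adjusted p was 0.418.

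Angpt2, the antagonist ligand, had 78.3, 52.4 and 44.1 CPM in endothelial-like cells in CLL and 23.3, 17.6 and 60.1 CPM in SHAM. SHAM replicate 3 again lay among the CLL values. Of the 16 Angpt2 UMIs of CLL replicate 1, 6 came from 1 cell. The log2 fold of 0.91 ± 0.47 did not pass (edgeR adjusted p = 0.703). Angpt1 was near absent from the class, with 0, 1 and 2 UMIs in CLL and 26, 3 and 9 in SHAM, and was not tested there.

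The receptors differed less. Tek, the angiopoietin receptor, had 68.5, 116.7 and 55.9 CPM in CLL and 112.2, 130.9 and 84.9 CPM in SHAM, overlapping, with a log2 fold of -0.26 ± 0.30 (edgeR adjusted p = 0.897). Tie1 had 224.97, 200.1 and 147.1 CPM in CLL and 194.2, 247.6 and 229.4 CPM in SHAM, also overlapping, with a log2 fold of -0.10 ± 0.25 (edgeR adjusted p = 0.960). With the replicate number as a block neither receptor passed (edgeR adjusted p = 0.690 and 0.914).

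**Figure D3:**
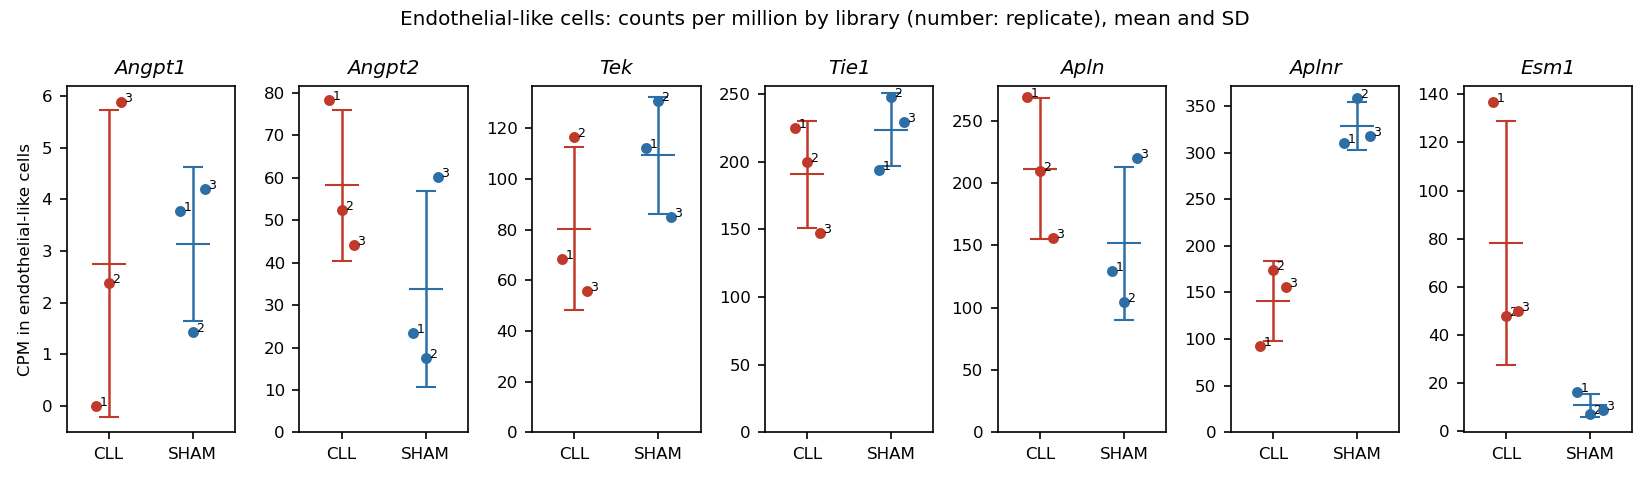
CPM of the 7 genes in endothelial-like cells, 1 point for each library with its replicate number, with mean and SD, CLL left of SHAM; each panel has its own axis. For Esm1 all CLL points are above all SHAM points, for Aplnr all are below, and the other panels overlap.

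Some marker lists differed between the groups in this class and others overlapped, and their part in the results was not tested. The 12 proliferation markers summed to 352 to 603 CPM in CLL and 1240 to 1450 CPM in SHAM, without overlap. The 10 capillary markers summed to 5644 to 18908 CPM in CLL and 16145 to 19173 CPM in SHAM. The 9 pericyte markers summed to 5.88 to 85.8 CPM in CLL, where 5 were at 0, and 91.9 to 252.3 CPM in SHAM, where 1 was at 0. The wider mural list summed to 445 to 1342 CPM in CLL, highest in replicate 3, and 527 to 871 CPM in SHAM, overlapping. Fibroblast markers overlapped as well, at 4563 to 7350 CPM in CLL and 3050 to 7787 CPM in SHAM. Lymphatic markers summed to 23.8 to 2411 CPM in CLL, highest in replicate 1, and 45.7 to 417.3 CPM in SHAM, overlapping. Without cells holding lymphatic markers, Esm1 had a log2 fold of 2.47 ± 0.36 and an edgeR adjusted p of 0.0159.

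Shares of cells with at least 1 UMI were compared after thinning every endothelial-like cell to 1000 UMIs, which used 228 CLL and 2268 SHAM cells and left out 74 and 396 shallower ones. Aplnr was found in 14.5 ± 0.939% of CLL and 24.9 ± 1.18% of SHAM cells (SD, n = 3 each), and no library of one group reached the other. Esm1 was found in 6.85 ± 4.88% of CLL and 0.508 ± 0.578% of SHAM cells. Tek was found in 7.82 ± 1.44% and 10.8 ± 1.14%. An exact permutation test, two-sided, gave 0.10 for each of these 3 genes, which is the lowest p that 3 against 3 libraries allow, and 0.233 after adjustment over the 7 genes. Angpt2 was found in 4.79 ± 3.05% of CLL and 1.78 ± 0.639% of SHAM cells, Tie1 in 14.98 ± 5.22% and 20.9 ± 1.37%, Apln in 5.06 ± 0.776% and 6.42 ± 1.67%, and Angpt1 in 0.694 ± 1.203% and 0.256 ± 0.221%, with exact permutation p-values of 0.20, 0.30, 0.40 and 1. The Apln share runs against its CPM, so no order is read from it. In macrophage/monocyte-like cells, a class that should lack the endothelial receptors and Apln, the thinned shares were at most 0.209 ± 0.146% for Apln, 0.251 ± 0.239% for Tie1 and 0.359 ± 0.204% for Aplnr in either group. Angpt2, which that class held at a low level, was found in 0.231 ± 0.0713% of its cells in CLL and 0.220 ± 0.239% in SHAM. In fibroblast/tenocyte-like cells the thinned Angpt2 share was 0.0625 ± 0.0228% in CLL and 0.0674 ± 0.117% in SHAM. The median depth of endothelial-like cells was 1728 UMIs in CLL and 2250 in SHAM, and of macrophage/monocyte-like cells 7428.5 and 2953.5. Without thinning, Aplnr was found in 24.8 ± 3.96% of CLL and 56.4 ± 8.89% of SHAM cells and Esm1 in 9.02 ± 4.60% and 3.83 ± 1.37%. Thinned to 500 UMIs, 4 differences changed sign: Esm1 was at -0.0151 percentage points, Tek at 0.735, Tie1 at 0.644 and Apln at 0.260, so no direction is read from those 4 shares. Aplnr kept its direction, at -5.28 points with 500 UMIs and -13.1 points with 2000.

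Endothelial-like cells were clustered again, without the 7 genes, to see which vessel segments carried them; these levels are a description. Named subsets in SHAM held 219 arterial, 348 capillary, 275 venous, 23 lymphatic and 253 cycling cells, while the same subsets in CLL held 24, 23, 7, 5 and 10 cells. Aplnr in SHAM had 478.5 CPM in capillary and 434.6 CPM in venous cells, against 71.7 CPM in arterial and 40.1 CPM in lymphatic cells. Among named subsets Apln in SHAM was highest in cycling cells, with 220.3 CPM (95% counting interval 199.9 to 242.1), and nearly missing from arterial cells, with 2 UMIs or 2.99 CPM. Angpt2 in SHAM had 200.6 CPM (129.8 to 296.1) in lymphatic cells, above its 38.5 CPM in capillary and 7.47 CPM in arterial cells. Of those 25 lymphatic UMIs, 15 came from 22 cells of SHAM replicate 1 (142.7 CPM) and 10 from 1 cell of replicate 3. SHAM replicate 2 had no lymphatic cells. Tie1 and Tek were present in every subset, Tie1 between 153.2 and 297.7 CPM and Tek between 92.7 and 166.4 CPM in SHAM. Intervals here cover counting error only.

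Aplnr in the capillary subset had 733.2, 275.4 and 243.5 CPM in CLL replicates 1 to 3, from 2, 19 and 2 cells, against 471.1, 526.95 and 437.0 CPM in SHAM, so the groups overlapped. In the cycling subset it had 292.9 CPM (146.2 to 524.2) in CLL, all 11 UMIs from replicate 2, and 290.4 CPM (267.0 to 315.4) in SHAM. Most endothelial-like cells of both groups stayed unnamed at this step, 74.7 ± 4.998% in CLL and 54.9 ± 3.88% in SHAM. In those cells Esm1 had 75.7 CPM (56.2 to 99.8) in CLL and 11.8 CPM (9.05 to 15.1) in SHAM. Apln there had 263.4 CPM (225.7 to 305.5) in CLL and 152.8 CPM (142.4 to 163.8) in SHAM, and Aplnr 133.2 CPM (106.8 to 164.1) in CLL and 284.5 CPM (270.3 to 299.3) in SHAM. By library, Esm1 and Aplnr did not overlap in those cells and Apln did. One unnamed sub-cluster of 311 cells had Apln, Kit and Prnd as its leading genes, although Apln had been left out of the clustering; it held 9, 30 and 10 cells in CLL and 220, 26 and 16 in SHAM. Another, of 135 cells led by Igfbp3 and Esm1, held 0, 1 and 0 cells in CLL and 127, 4 and 3 in SHAM.

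The tip genes met in single cells. Of endothelial-like cells with an Apln UMI, 11 of 36 in CLL (30.6%) and 35 of 447 in SHAM (7.83%) also had Esm1, against 3.01% and 2.75% of cells without Apln. Angpt2 was found in 41.7% of Apln-positive cells in CLL and 17.4% in SHAM, against 3.76% and 5.05% of cells without Apln. Aplnr did not follow in CLL: it was found in 22.2% of Apln-positive and 23.7% of Apln-negative cells there, and in 71.4% and 44.3% in SHAM. Apln-positive cells were deeper, with medians of 4118 UMIs in CLL and 4963 in SHAM against 1562 and 1937 UMIs in cells without it. These pairings were not thinned or tested.

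In fibroblast/tenocyte-like cells, the matrix-producing stroma, 6 of the 7 genes passed the filter and 4 were called, Apln higher and Tek, Angpt2 and Aplnr lower in CLL. In this class 26.2% of 14328 genes were called, 12.1% higher and 14.1% lower in CLL. The class was also made of different cells in the 2 groups. A cluster led by Ecrg4, Ddah1 and Csrp2 held 72.1% of it in CLL (59.9% to 80.7% by library) and 19.0% in SHAM (13.7% to 22.8%), and a cluster led by Clec3b, Abca8a and Apod held 6.45% in CLL (5.47% to 7.997%) and 65.9% in SHAM (58.0% to 72.3%). Values within these clusters therefore stand beside the class values.

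Angpt1 had 19.3, 17.8 and 20.2 CPM in the class in CLL and 28.2, 28.95 and 19.9 CPM in SHAM. SHAM replicate 3 lay among the CLL libraries, and the log2 fold of -0.34 ± 0.15 did not pass (edgeR adjusted p = 0.128). Without SHAM replicate 3 it was -0.48 ± 0.13 (edgeR adjusted p = 0.0297). Within clusters the direction was not kept. In the Ecrg4 cluster Angpt1 had 18.9, 18.4 and 19.6 CPM in CLL and 13.3, 19.7 and 12.3 CPM in SHAM, a log2 fold of 0.46 ± 0.19, and in the Clec3b cluster 37.4, 23.2 and 35.96 CPM in CLL and 39.5, 35.99 and 24.2 CPM in SHAM, a log2 fold of 0.05 ± 0.22 (edgeR adjusted p = 0.205 and 0.954). The Clec3b cluster had more Angpt1 than the Ecrg4 cluster in each of the 6 libraries.

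Apln, usually an endothelial ligand, had 7.87, 12.4 and 5.38 CPM in fibroblast/tenocyte-like cells in CLL and 4.56, 2.10 and 1.50 CPM in SHAM. All CLL libraries were above all SHAM libraries, by the smallest margin between CLL replicate 3 and SHAM replicate 1. The log2 fold was 1.65 ± 0.39 (edgeR adjusted p = 0.0125), and the call held without each library in turn. It was lost without CLL replicate 2 and SHAM replicate 3 together (log2 fold 1.05 ± 0.34, edgeR adjusted p = 0.0744). In the Ecrg4 cluster alone Apln had 7.48, 12.7 and 5.29 CPM in CLL and 7.73, 4.07 and 2.68 CPM in SHAM, overlapping, with a log2 fold of 0.73 ± 0.41 (edgeR adjusted p = 0.358). The Clec3b cluster had little Apln in either group, with 4 UMIs (0.907 CPM) in CLL and 31 UMIs (1.78 CPM) in SHAM, and a cycling cluster led by Hist1h1b had 12.5 CPM in CLL and 4.98 CPM in SHAM.

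Tek in this class had 6.16, 6.35 and 5.75 CPM in CLL and 9.13, 9.28 and 8.88 CPM in SHAM. The groups did not overlap and the log2 fold was -0.48 ± 0.14 (edgeR adjusted p = 0.0321). The call was lost without any 1 of the 6 libraries (edgeR adjusted p-values of 0.0553 to 0.106) with DESeq2 (adjusted p = 0.0784), with no filter on low counts (0.0944) and with a replicate block (0.0654). In the Ecrg4 cluster the direction turned, with 4.996, 4.32 and 5.65 CPM in CLL and 3.63, 3.39 and 1.92 CPM in SHAM and a log2 fold of 0.80 ± 0.31 (edgeR adjusted p = 0.181). Tek had its highest level in a small cluster led by Pi16, Pcolce2 and Scara5, which mark fibroblasts of the vessel adventitia and fascia. There it had 42.9, 61.6 and 28.7 CPM in CLL, from 144 UMIs in 346 cells, and 114.1, 212.4 and 160.2 CPM in SHAM, from 31 UMIs in 34 cells. The whole class held 681 Tek UMIs in CLL and 282 in SHAM, so most of them lay in other clusters. All 3 SHAM libraries were above all CLL libraries, on 6, 10 and 15 UMIs, and this cluster had too few SHAM cells for a test.

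**Figure D4:**
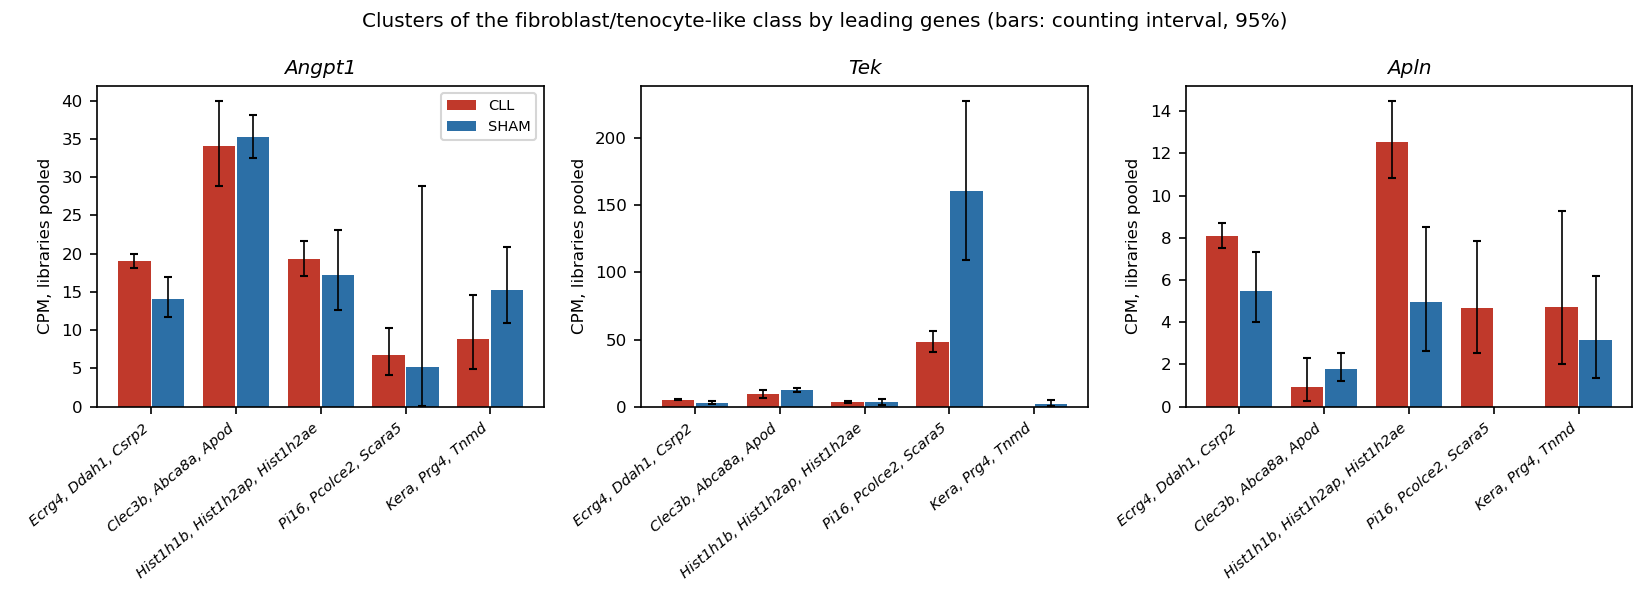
Angpt1, Tek and Apln in the 5 clusters of the fibroblast/tenocyte-like class, named by leading genes, in CPM over pooled libraries, CLL left of SHAM, with 95% counting intervals. Angpt1 is highest in the Clec3b cluster, with 34.0 CPM in CLL and 35.2 CPM in SHAM. Tek is highest in the Pi16 cluster, with 48.2 CPM in CLL and 160.4 CPM in SHAM. Apln is highest in the Hist1h1b cluster in CLL and lowest in the Clec3b cluster in CLL.

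Ratios to Tie1, an endothelial gene, were taken in this class. Tie1 had 12 UMIs in fibroblast/tenocyte-like cells in CLL and 56 in SHAM. Per Tie1 UMI there were 56.8 Tek UMIs in CLL and 5.04 in SHAM in this class, against 0.456 and 0.524 in endothelial-like cells. For Apln the same ratios were 77.3 and 1.73 in fibroblast/tenocyte-like and 1.09 and 0.675 in endothelial-like cells. The CLL ratios rest on those 12 Tie1 UMIs, and the part of endothelial RNA in the Tek and Apln values was not tested.

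Aplnr and Angpt2 were low in fibroblast/tenocyte-like cells. Aplnr had 0.151, 0.440 and 0.344 CPM in CLL and 3.83, 2.60 and 1.50 CPM in SHAM, from 6, 14 and 14 UMIs in CLL and 57, 21 and 12 in SHAM, without overlap (log2 fold -3.04 ± 0.44, edgeR adjusted p = 0.00145). Angpt2 had 0.478, 0.157 and 0.516 CPM in CLL and 2.35, 1.11 and 1.50 CPM in SHAM, also without overlap (log2 fold -2.01 ± 0.44, edgeR adjusted p = 0.00976), a call that was lost without SHAM replicate 1 (0.0566). Thinned to 1000 UMIs, the share of cells with Angpt2 overlapped, at 0.0625 ± 0.0228% in CLL and 0.0674 ± 0.117% in SHAM. The SHAM shares were 0.202%, 0% and 0%. Median depth in this class was 16287 UMIs in CLL and 4684.5 in SHAM. Within the Ecrg4 cluster Aplnr had 0.196, 0.332 and 0.299 CPM in CLL and 0.725, 0 and 0.383 CPM in SHAM, and within the Clec3b cluster 0, 2.21 and 0.666 CPM in CLL and 4.49, 3.83 and 2.15 CPM in SHAM, so the groups overlapped in both. Angpt2 in the Ecrg4 cluster had 0.392, 0.0830 and 0.448 CPM in CLL and 4.11, 3.39 and 1.15 CPM in SHAM, without overlap (log2 fold -3.10 ± 0.59, edgeR adjusted p = 0.0095). In the class the 14 endothelial markers summed to 147.4, 152.4 and 176.5 CPM in CLL and 195.7, 174.2 and 147.9 CPM in SHAM, overlapping. The 10 capillary markers summed to 174.6 to 249.6 CPM in CLL and 228.2 to 415.7 CPM in SHAM. The part of endothelial RNA in the Aplnr and Angpt2 results was not tested. Esm1 was at 0.467 to 0.817 CPM in CLL and 0.125 to 1.48 CPM in SHAM, with a log2 fold of -0.12 ± 0.60 (edgeR adjusted p = 0.908).

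Myogenic-like cells, the satellite cells and myoblasts that rebuild fibres, had less Angpt1 and less Tek in CLL. Of the 7 genes, 3 passed the filter and 2 were called, where 13.2% of 11568 genes were called, 6.6% in each direction. Angpt1 had 6.65, 5.98 and 6.44 CPM in CLL and 11.8, 14.4 and 14.7 CPM in SHAM, with all CLL libraries below all SHAM libraries. The log2 fold was -0.92 ± 0.22 (edgeR adjusted p = 0.0287), and the call held without SHAM replicate 1 or SHAM replicate 2 (0.0278 and 0.0380) and not without the others (0.0675 to 0.110) or with DESeq2 (adjusted p = 0.0549). In the largest cluster, led by Myf5 and Cdh15, it was -1.05 ± 0.25 (edgeR adjusted p = 0.0114), on 7.21, 6.60 and 9.25 CPM in CLL and 16.1, 18.7 and 21.1 CPM in SHAM. That cluster held 63.3% of the class in CLL and 69.2% in SHAM. Other parts of the class differed more. A cluster led by Myog, Actc1 and Mymx held 26.6% of it in CLL (21.8% to 29.3% by library) and 14.1% in SHAM (10.7% to 19.7%). One led by Chodl, Pax7 and Dag1 held 1.58% in CLL (0.661% to 3.24%) and 11.1% in SHAM (0% to 17.0%), overlapping. No fit was run within either of them.

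Tek had 2.55, 3.22 and 2.38 CPM in myogenic-like cells in CLL and 8.52, 4.10 and 7.19 CPM in SHAM, again without overlap. The log2 fold was -1.25 ± 0.31 (edgeR adjusted p = 0.0326), on 18, 7 and 24 UMIs in CLL and 85, 10 and 25 in SHAM. The call held without SHAM replicate 2 (0.0100) but not without any other single library (0.0592 to 0.154). In the Myf5 cluster it was -0.996 ± 0.35 (edgeR adjusted p = 0.0669). Apln had 0.708, 5.52 and 0.198 CPM in CLL and 2.81, 0.820 and 6.04 CPM in SHAM, scattered in both groups, and did not pass (log2 fold -1.29 ± 0.98, edgeR adjusted p = 0.407). Marker sums of other cells were also taken in this class. The 14 endothelial markers summed to 21.7 to 32.2 CPM in CLL and 33.6 to 137.3 CPM in SHAM, without overlap. The 16 macrophage/monocyte markers summed to 345 to 943 CPM in CLL and 410 to 6565 CPM in SHAM, overlapping. The 16 mural markers summed to 3614 to 4562 CPM in CLL and 1601 to 1925 CPM in SHAM, without overlap. The mural list shares Des with the myogenic list. The 15 fibroblast markers summed to 4565 to 7598 CPM in CLL and 5000 to 8840 CPM in SHAM, overlapping. The part of those cells' RNA was not tested.

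Macrophage/monocyte-like cells had a low level of Angpt2. It was the 1 member of 7 that passed the filter there, and was not called, where 4.6% of 11509 genes were called, 1.88% higher and 2.72% lower in CLL. Angpt2 had 3.48, 3.45 and 3.02 CPM in CLL and 2.32, 1.03 and 1.64 CPM in SHAM, with all CLL libraries higher (log2 fold 0.93 ± 0.33, edgeR adjusted p = 0.133). The counts were 24, 12 and 25 UMIs in CLL and 42, 6 and 15 in SHAM. Tie1 had 0, 0 and 2 UMIs there in CLL, against 50, 1 and 20 UMIs in the SHAM libraries. A cluster led by F13a1, Cbr2 and Mrc1 held 58.7% of this class in CLL and 22.4% in SHAM, and one led by H2-Aa, Cd74 and Cx3cr1 16.3% in CLL and 57.03% in SHAM. In dendritic-like cells no member passed the filter, where 3.39% of 7777 genes were called, 0.9% higher and 2.49% lower in CLL.

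Mural-like cells, which wrap vessels, had too few cells for a test, with 21, 52 and 16 in CLL and 858, 100 and 40 in SHAM. Angpt2 was at 55.2 and 15.9 CPM in the CLL libraries with at least 20 of these cells and at 31.6, 49.7 and 32.4 CPM in SHAM. Angpt1 was at 11.03 and 23.9 CPM in CLL and at 9.75, 19.0 and 21.1 CPM in SHAM, on 2 and 3 UMIs in those CLL libraries. Fibroblast markers summed to 14200 and 10244 CPM in mural-like cells of those CLL libraries and 5663 to 15128 CPM in SHAM, overlapping. In CLL replicate 3, with its 16 cells, they summed to 23672 CPM. The part of fibroblast RNA in the Angpt1 values was not tested. In SHAM the order of Angpt1 means over libraries with at least 20 cells ran from fibroblast/tenocyte-like (25.7 ± 5.03 CPM) through myofibre-like (20.5 ± 4.86, n = 2), mural-like (16.6 ± 6.03), myogenic-like (13.6 ± 1.56) and unnamed cells (9.995 ± 0.811) to dendritic-like (5.54 ± 2.89), glial-like (3.98 ± 4.52), T/NK-like (3.86 ± 5.46, n = 2), endothelial-like (3.13 ± 1.49) and macrophage/monocyte-like cells (1.13 ± 0.862). Myofibre-like, mural-like and myogenic-like neighbours lay within 1 SD of the mural-like mean, as did the classes from dendritic-like to macrophage/monocyte-like within 1 SD of the glial-like mean.

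**Figure D5:**
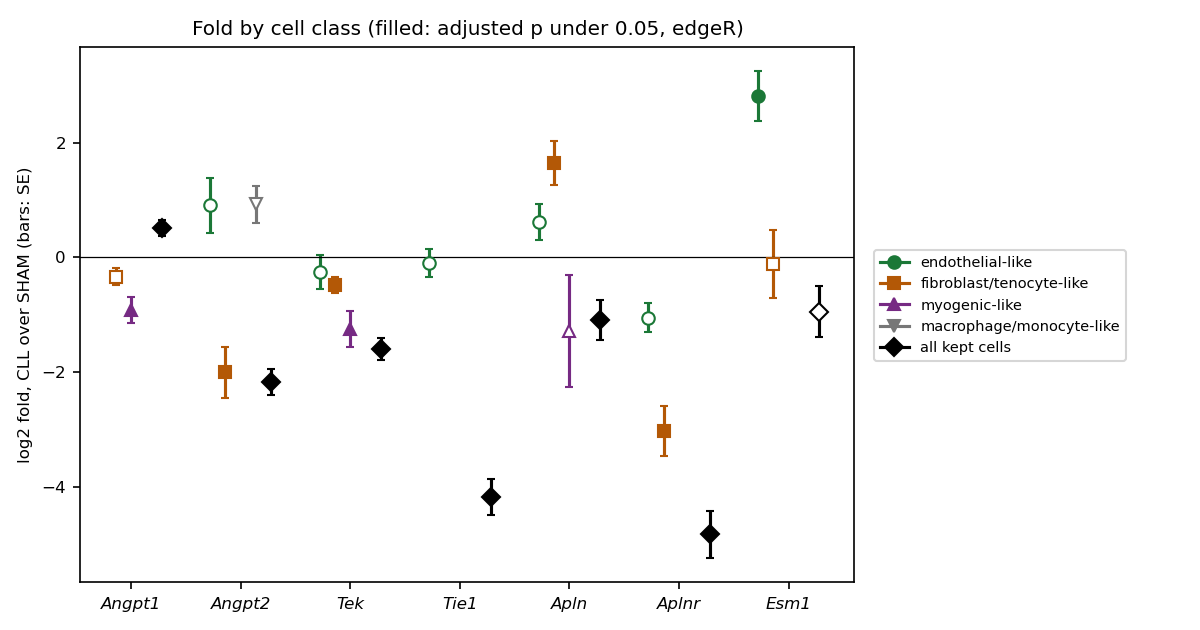
Log2 fold of CLL over SHAM (bars are standard errors) for each gene in the classes where it was tested, with filled symbols at an edgeR adjusted p below 0.05. Esm1 in endothelial-like cells and Apln in fibroblast/tenocyte-like cells are above 0 at 2.82 and 1.65, and the all-cell folds (black) of Tie1 and Aplnr are lowest at -4.19 and -4.83.

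Over all kept cells, a sum in which fewer cells of a type and less RNA per cell cannot be told apart, 6 of the 7 genes were called, where 36.6% of 16687 genes were, 17.6% higher and 19% lower in CLL. Angpt1 was higher, with 14.98, 17.5 and 15.1 CPM in CLL and 11.3, 13.7 and 9.84 CPM in SHAM (log2 fold 0.52 ± 0.14, edgeR adjusted p = 0.0241). It was lost without CLL replicate 1 (0.0524), SHAM replicate 1 (0.0854) or SHAM replicate 3 (0.0766). Lower in CLL were Aplnr (log2 fold -4.83 ± 0.41), Tie1 (-4.19 ± 0.31), Angpt2 (-2.17 ± 0.23), Tek (-1.59 ± 0.19) and Apln (-1.09 ± 0.34), with edgeR adjusted p-values of 0.000194, 0.000122, 0.000381, 0.000675 and 0.0385. Groups did not overlap for Aplnr, Tie1, Angpt2 and Tek. The share of all genes without overlap was not taken, so nothing is read from how many members did not. Apln overlapped and its call was lost with a replicate block (0.0693) and without any of 4 single libraries (up to 0.115). Esm1 did not pass, with 1.07, 1.34 and 0.589 CPM in CLL and 3.41, 1.23 and 1.29 CPM in SHAM (log2 fold -0.94 ± 0.44, edgeR adjusted p = 0.126). Without CLL replicate 2 and SHAM replicate 3 together it passed, at -1.43 ± 0.45 (edgeR adjusted p = 0.0432).

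The balance of the 2 ligands was taken as log2 of Angpt2 over Angpt1, each as CPM + 1. Over all kept cells it was -2.73, -3.13 and -2.84 in CLL and -0.72, -1.46 and -0.44 in SHAM. Every CLL library was lower, by 2.03 on average, and the exact permutation test, two-sided, gave p = 0.10, the lowest possible here, and 0.20 after adjustment over the 2 ratios. In endothelial-like cells the ratio was 6.31, 3.98 and 2.71 in CLL and 2.35, 2.94 and 3.56 in SHAM, overlapping (difference 1.39, exact permutation p = 0.30). With 0 to 2 Angpt1 UMIs in CLL that second ratio depends on the added count.

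The class-by-treatment term compared folds in endothelial-like and fibroblast/tenocyte-like cells, where 1.62% of 13506 genes were called. The endothelial fold exceeded the fibroblast fold by 3.65 ± 0.70 for Tie1, 3.14 ± 0.61 for Angpt2 and 1.94 ± 0.39 for Aplnr on the log2 scale (edgeR adjusted p = 0.0192, 0.0196 and 0.0240). Tie1 did not pass the filter in fibroblast/tenocyte-like cells and entered this fit only through endothelial-like cells, so nothing is read from its value. Each call was lost without CLL replicate 1 (0.170, 0.159 and 0.158) or SHAM replicate 1 (0.0822, 0.0597 and 0.0793), Angpt2 also without CLL replicate 2 (0.0506), and Tie1 and Aplnr without CLL replicate 3 (0.0751 and 0.0910). Esm1 differed by 2.78 ± 0.72 and Apln by -0.96 ± 0.42, and neither passed (edgeR adjusted p = 0.0647 and 0.319). Esm1 passed without CLL replicate 2, SHAM replicate 2 or SHAM replicate 3 (0.0219 to 0.0390) and Apln without SHAM replicate 1 (0.0132).

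Other genes of these pathways were counted from 5 lists in endothelial-like cells. Of 19 tested genes of angiopoietin and Tie signalling, 18 of apelin signalling, 18 of stalk and phalanx cells and 20 upstream regulators, none was called by edgeR, where 8 of 8953 genes (0.0894%) were. The median log2 folds were 0.09, -0.15, -0.06 and -0.16, against 0.01 over all genes. Of 31 tip cell genes 1 was called and the median was -0.17. That gene was Pgf, placental growth factor, a VEGF family ligand, with 97.8, 76.2 and 141.2 CPM in CLL and 20.3, 20.9 and 35.4 CPM in SHAM (log2 fold 2.20 ± 0.32, edgeR adjusted p = 0.0214). Of the tip list, Igfbp3 (log2 fold -0.90 ± 0.28), Mcam (-0.43 ± 0.23) and Col4a2 (-0.46 ± 0.25) had negative and Adm (0.72 ± 0.29) and Sox17 (0.50 ± 0.27) positive values, none passing (edgeR adjusted p of 0.364 to 0.721).

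Of the other listed genes with the smallest p, none passed. Klf2 had a log2 fold of 0.87 ± 0.27, Klf4 1.37 ± 0.31 and Klf6 0.65 ± 0.26, with edgeR adjusted p-values of 0.363, 0.149 and 0.547. Nrarp, a Notch target of stalk cells, had 39.1, 45.3 and 38.3 CPM in CLL and 86.6, 101.9 and 93.7 CPM in SHAM, without overlap (log2 fold -1.04 ± 0.26, edgeR adjusted p = 0.196). Sox18, a vascular transcription factor, had a log2 fold of -0.89 ± 0.25 and Fli1, an ETS factor, -1.06 ± 0.32 (edgeR adjusted p = 0.299 and 0.356). Svep1 (1.04 ± 0.46), an extracellular ligand of Tie1, Itgav (0.72 ± 0.38), Nos3 (-0.44 ± 0.28), Grb2 (0.27 ± 0.21), Mef2a (0.57 ± 0.26), Gnai3 (0.48 ± 0.23), Grk2 (-0.43 ± 0.27), Gna13 (-0.46 ± 0.33), Cav1 (-0.74 ± 0.29), Smad7 (0.65 ± 0.28), Vegfc (-1.54 ± 0.63), Hif1a (0.45 ± 0.22), Sox7 (-0.42 ± 0.22) and Vegfa (0.74 ± 0.48) did not pass either (log2 folds; edgeR adjusted p of 0.528 to 0.830).

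Genes with the most similar pattern over 51 class-by-library sums of 10 classes were listed for each member, by Pearson r of log2(CPM + 1) among genes reaching 20 CPM in a class. The sums share libraries and depth, so r is a description. Tie1 was most like Cyyr1, Cldn5 and Adgrl4 (r = 0.983, 0.966 and 0.963) and Aplnr most like Mall, Gm32688 and Arhgef15 (0.950, 0.942 and 0.938). Apln was closest to Ushbp1, Thsd1 and Gm32688 (0.904, 0.896 and 0.891), Tek to Fgd5, Fzd6 and Sncaip (0.892, 0.888 and 0.868) and Angpt2 to Pcdh1, Tinagl1 and Gja4 (0.887, 0.885 and 0.871). Esm1 was closest to Ptprr, Nos2 and Sele (0.882, 0.870 and 0.863), and Angpt1, the stromal member, to Serping1, Egfr and Prrx1 (0.801, 0.791 and 0.788).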

How the data were processed

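The authors deposited raw counts: per the file headers, 1 matrix of UMIs per gene and barcode for each library, made with Chromium Single Cell 3' v3.1 chemistry per the labels' protocols, and with Cell Ranger 6.1.2 on build mm10 per the submitters' processing notes. Kept barcodes had 300 or more genes and a mitochondrial share of up to 15%, and 7032 doublets were removed by score (Scrublet, 0.8% per 1000 barcodes). Cells were clustered jointly (scanpy 1.11.5, leidenalg 0.10.2; 2000 variable genes without the 7 members, 30 components, 15 neighbours, resolution 1, no batch integration). Of 40 clusters, 29 were named "X-like" from marker lists. The margin over a second list (0.75) and the clusters held back for opposing leading genes were set after the clusters were seen, and 14643 kept cells stayed unnamed. CPM are counts per 1000000 UMIs of a class sum.

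UMIs were summed per library and class, with at least 20 cells per library, and tested with edgeR 4.0.16 (quasi-likelihood, TMM, filterByExpr, group only, Benjamini-Hochberg at 0.05) in R 4.3.3, with limma 3.58.1 and DESeq2 1.42.0 as alternatives. The test was checked on simulated counts. In simulated endothelial-like sums it recovered 16% of 100 genes set to a log2 fold of size 1 and 72% of 100 set to 2. In simulated fibroblast/tenocyte-like sums these were 26% and 81%. False calls numbered 4 and 8. Promoters came from RefSeq. Named were all 7 members, list genes past the threshold in endothelial-like cells and up to 5 others per list by smallest p there, and 3 alike genes per member. Members and lists were chosen with earlier results of these data known. Same-numbered CLL and SHAM libraries deviated together in endothelial-like sums (correlations of 0.154, 0.326 and 0.187). These are the sums that were tested, so they cannot show that the libraries were paired. The replicate number was used as a block in alternative fits only. The labels do not say what a number shares, and in other classes some pairs correlated negatively. Fits within single clusters, without mixed sub-clusters and with looser cluster names were chosen after seeing the data.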

Additional observations from a re-analysis of the deposited data

Results flagged for a closer look

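Under the same treatment, folds differed between endothelial-like and fibroblast/tenocyte-like cells for Angpt2 and Aplnr, by the class-by-treatment term of edgeR with the library as a block. The log2 fold in endothelial-like cells minus that in fibroblast/tenocyte-like cells was 3.14 for Angpt2 and 1.94 for Aplnr. Each of these calls was lost without CLL replicate 1 or SHAM replicate 1. Tie1 was also called, at 3.65. It did not pass the filter on low counts in fibroblast/tenocyte-like cells and entered the fit only through endothelial-like cells, so its value supports nothing. Levels in fibroblast/tenocyte-like cells were low. Tie1 had 0.114 ± 0.0984 CPM in CLL and 1.48 ± 1.33 CPM in SHAM there, Angpt2 0.383 ± 0.197 and 1.65 ± 0.632 CPM, and Aplnr 0.311 ± 0.147 and 2.64 ± 1.16 CPM (SD, n = 3 each). Endothelial-like cells made up 1.38 ± 0.553% of all CLL cells kept, against 9.62 ± 6.14% in SHAM, and the part of their free RNA in these differences was not tested.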

How the results depend on the processing

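Of 13 called member results, 12 kept their direction in every alternative where the gene was tested, and 5 kept the call in every one of those. These 5 were Aplnr in fibroblast/tenocyte-like cells, and Angpt2, Tek, Tie1 and Aplnr over all kept cells, a sum that mixes cell numbers with level per cell. Aplnr was tested in 14 alternatives in fibroblast/tenocyte-like cells, where Angpt1 was tested in 17. Within the Ecrg4 and the Clec3b cluster, whose parts of that class differ between the groups, the Aplnr values of CLL and SHAM overlapped. Genes called in endothelial-like cells (8) became 43 with DESeq2, 176 with no filter, 60 with the replicate block, 0 without mural-marker cells, 14 without mixed sub-clusters, 13 with looser names, 1 without CLL replicate 2 and SHAM replicate 3, and 0 to 39 without 1 library. Without those 2 libraries the counts were 2163 (fibroblast/tenocyte-like), 117 (macrophage/monocyte-like), 143 (dendritic-like) and 151 (myogenic-like). With no filter the last 3 were 1449, 682 and 2329, and with doublets kept the first 2 of these were 338 and 95. Within fibroblast clusters 529 (Ecrg4), 131 (Clec3b) and 137 (Kera) were called. Without 1 library, counts ranged over 2211 to 3450 (fibroblast/tenocyte-like), 45 to 748 (macrophage/monocyte-like), 8 to 723 (dendritic-like), 254 to 2443 (myogenic-like) and 1 to 332 (interaction, reported as 219). The interaction count was 1099 with limma-voom.

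Values that changed sign were Tie1 in endothelial-like cells (0.042 and 0.00083 without CLL replicate 3 or SHAM replicate 2; -0.249 to 0.042 without 1 library), Angpt1 (0.46 in the Ecrg4 and 0.0517 in the Clec3b cluster) and Tek (0.80 in the Ecrg4 cluster) in fibroblast/tenocyte-like cells, and Esm1 there (0.0528 with DESeq2, 0.18 with the block, 0.0964 without CLL replicate 3, 1.82 without SHAM replicate 1, 0.00196 with looser names). In the interaction Tek was -0.23 without CLL replicate 2 (up to 0.388 without 1 library) and Angpt1 -0.49 without CLL replicate 3 (up to 0.659). Thinned to 500 UMIs, share differences were 0.735 (Tek), 0.644 (Tie1), 0.260 (Apln) and -0.0151 (Esm1) points. Apln was 0.123 at 2000 UMIs, and Angpt1 -0.256 without CLL replicate 3 (up to 0.786 without 1 library). The cause was not tested. With the replicate block, counts elsewhere were 2858 (fibroblast/tenocyte-like), 361, 313, 1178 and 5656 (all kept cells), within 1.5 times of those reported, and the calls of Tek in fibroblast/tenocyte-like (adjusted p = 0.0654) and myogenic-like cells (0.0595) and of Apln over all kept cells (0.0693) were lost. Endothelial-like sums in CLL rest on 39 to 205 cells.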

Other observations

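Angpt1 reached its highest level outside the named classes. A cluster led by Cxcl14, C3 and Serpina3n, which could not be named, had 205 CLL cells and 3 SHAM cells. Angpt1 there was at 58.3, 63.6 and 48.3 CPM in CLL replicates 1 to 3, from 198 UMIs, above every fibroblast/tenocyte-like cluster in each CLL library. The SHAM cells held 2 UMIs, so no comparison was made. Adipocyte-like cells, 643 of them from CLL replicate 2, held 99 Angpt1 UMIs in CLL, or 24.6 CPM.

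A cluster of 308 SHAM cells and 0 CLL cells stayed unnamed, with endothelial markers ranking first and mural markers second in it. Most of its cells came from 1 library, with 281, 12 and 15 in SHAM replicates 1 to 3. The CLL libraries had few cells of either kind, with 39, 205 and 58 endothelial-like and 21, 52 and 16 mural-like cells. Whether doublets left after filtering made up part of this cluster was not tested. Rgs5, Abcc9 and Kcnj8, known from pericytes, led it, with Cdh5 and Tcf15 among its 10 leading genes. It had 136.9 CPM of Tie1, 166.0 CPM of Aplnr, 75.8 CPM of Tek, 86.2 CPM of Apln and 23.8 CPM of Angpt2. The Apln UMIs were 149, 0 and 43 in SHAM replicates 1 to 3.

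Of 20 upstream regulators tested in fibroblast/tenocyte-like cells, 4 were higher in CLL (Vegfa, Vegfd, Hif1a and Ets1) and 5 lower (Vegfc, Arnt, Sox7, Foxc1 and Il1b), where 12.1% of genes were called higher and 14.1% lower. Vegfa had 47.4, 61.1 and 31.0 CPM in CLL and 26.1, 19.1 and 21.6 CPM in SHAM (log2 fold 1.15 ± 0.22, edgeR adjusted p = 0.00514), and Vegfd 30.05, 33.8 and 25.1 CPM in CLL and 12.9, 12.4 and 14.6 CPM in SHAM (log2 fold 1.26 ± 0.14, edgeR adjusted p = 0.00048). Vegfc, of the same family, had a log2 fold of -0.61 ± 0.19 (edgeR adjusted p = 0.0415). These genes were picked after their values were seen, and were not tested within the clusters that differ between the groups in this class.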
